A study of Mus musculus with 5 samples.

Results

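The genes described here encode the initiation factors (eIFs) and elongation factors (eEFs) of cytosolic translation in mouse marrow erythroblasts, which still have a nucleus and mature into red cells. They are the genes whose symbol in the platform annotation names a subunit of eIF1 to eIF6 or begins with Eef, without the eIF2 kinases and the eIF4E-binding proteins. By this rule 112 probes of 55 genes were members, out of 45281 probes and 19057 named genes on the array. Of the 55 genes, 49 lay above background on at least 2 arrays and were tested among 10076 genes. The study put total RNA of such cells from the strain C57BL/6J on 5 Illumina bead arrays, 2 carrying the label Flvcr deleted and 3 the label wild type. The product of Flvcr1, the gene behind the label Flvcr, carries heme out of the cell, and the comparison asks how erythroid transcripts differ after its deletion. The labels give neither the age of the mice, nor the Cre or promoter behind the deletion, nor how erythroblasts were isolated.

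Translation begins when eIF2, with GTP and the initiator tRNA, joins the small ribosomal subunit together with eIF1, eIF1A, eIF3 and eIF5. The cap-binding complex eIF4F brings this assembly to the mRNA, and eIF2B recharges eIF2 with GTP after each round. eEF1A then delivers aminoacyl-tRNAs, its exchange factor (eEF1B) recharges it, and eEF2 moves the ribosome along. In erythroid cells the kinase HRI, encoded by Eif2ak1, is held inactive by heme. When heme is short it phosphorylates the alpha subunit of eIF2, which then blocks eIF2B, so that globin is not made in excess of heme.

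Several facts of the arrays bear on all values. The values are read as log2 signals with a distribution shared by all arrays, so each is relative to the other probes of its array, and between 35.9% and 36.0% of probes lay above the background floor of 6.83. Across probes, r was 0.989 to 0.992 for arrays that share a label and 0.948 to 0.954 for arrays that do not. Signals for Flvcr1 were 9.88 and 9.75 under the label Flvcr deleted, against 8.16, 8.32 and 8.25 under the label wild type. The probe was thus higher under the deleted label (log2 difference 1.57, SE 0.10, limma, adjusted p = 1.36e-05). No source says whether this probe lies inside the deleted stretch, so it cannot serve as a check of the labels, and every direction below rests on those labels alone. Xist, the RNA of the inactive X chromosome, read 6.79 and 6.76 in the deleted-labelled arrays, against 8.98, 6.78 and 6.87 in wild-type-labelled replicates 1 to 3. Wild-type-labelled replicate 1 stood apart by this RNA, and by the Y-linked member Eif2s3y it lay below the floor (6.59). By Xist and Eif2s3y the wild-type-labelled group was mixed, and both deleted-labelled arrays read like its replicates 2 and 3. The labels give no sex and do not say that arrays came from separate animals, so p-values reflect only how these samples vary. Part of that variation may be technical, though wild-type-labelled replicate 1 differed from the others of its label in both these genes.

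Of 10 erythroblast markers 9 were measured, and all 9 lay above the floor on every array. Their signal, summed on the linear scale, lay between 79780 and 84202 in the deleted-labelled arrays and between 105012 and 108812 in the wild-type-labelled arrays. Of the 9 markers 7 were lower. Of all genes tested 17.5% were lower, the share to set beside the lists that follow too. Markers of other marrow cells moved too. Neutrophil markers summed to between 6009 and 10454 in the deleted-labelled arrays, against 31182 to 36021 in the wild-type-labelled arrays, with 5 of 11 measured markers lower. For mast cells, basophils and eosinophils the sums were 1056 and 1065, against 5605 to 8372, with 5 of 6 lower. Prg2, the brightest gene of that list on every array, weighs most in these sums. It read 8.78 and 8.86, against 12.74, 12.69 and 11.44. B cell markers summed to 446 and 431, against 617 to 818, with 2 of 4 lower, and no B cell marker lay above the floor on both deleted-labelled arrays. Macrophage sums overlapped, at 2494 and 1633 against 1928 to 3705. T and NK cell markers summed to 485 and 303, against 777 to 1301, and megakaryocyte markers to 311 and 265, against 736 to 767, with 1 of 2 measured markers lower in each list. In each of these 2 lists the fall of the sum, and not the sum itself, was carried by 1 gene. Nkg7 fell by 1.80 while Cd3e, near the floor, was 0.24 higher without passing, and Gp9 fell by 2.07 while Itga2b overlapped (0.04). The part of these shifts in the results below was not tested, and in bulk samples fewer cells of a type and less RNA per cell cannot be told apart.

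Translation factor transcripts were mostly level or higher in the deleted-labelled arrays. With limma and Benjamini-Hochberg adjustment over all genes tested, at a threshold of 0.05, 23 of 49 members rose, or 46.9%, against 21.8% of all 10076 genes (39.3% of which passed in either direction). Only 1 member, the eEF2 kinase gene Eef2k, fell, or 2.04%, against 17.5% of all genes. The remaining 25 did not pass. These shares of all genes, 21.8% higher and 17.5% lower, are also those to set beside the counts by complex and list below. The median log2 difference, labelled Flvcr-deleted minus labelled wild-type, was 0.41 over the members and 0.01 over all genes tested. In 31 members every deleted-labelled array lay above every wild-type-labelled array (63.3%, against 32.3% of all genes), and in 3 every one lay below (6.12%, against 26.8%), when 59.0% of all genes had groups that did not overlap. Among the 6900 genes above the floor on all 5 arrays, 28.5% rose and 23.7% fell. By the same filter 22 of 43 members rose and 1 fell. With 1 wild-type-labelled array left out, between 18.8% and 22.0% of all genes tested rose. Of the 23 members, 17 kept their call whichever of the 5 arrays was left out. The matching share over all genes was not computed.

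**Figure D1:**
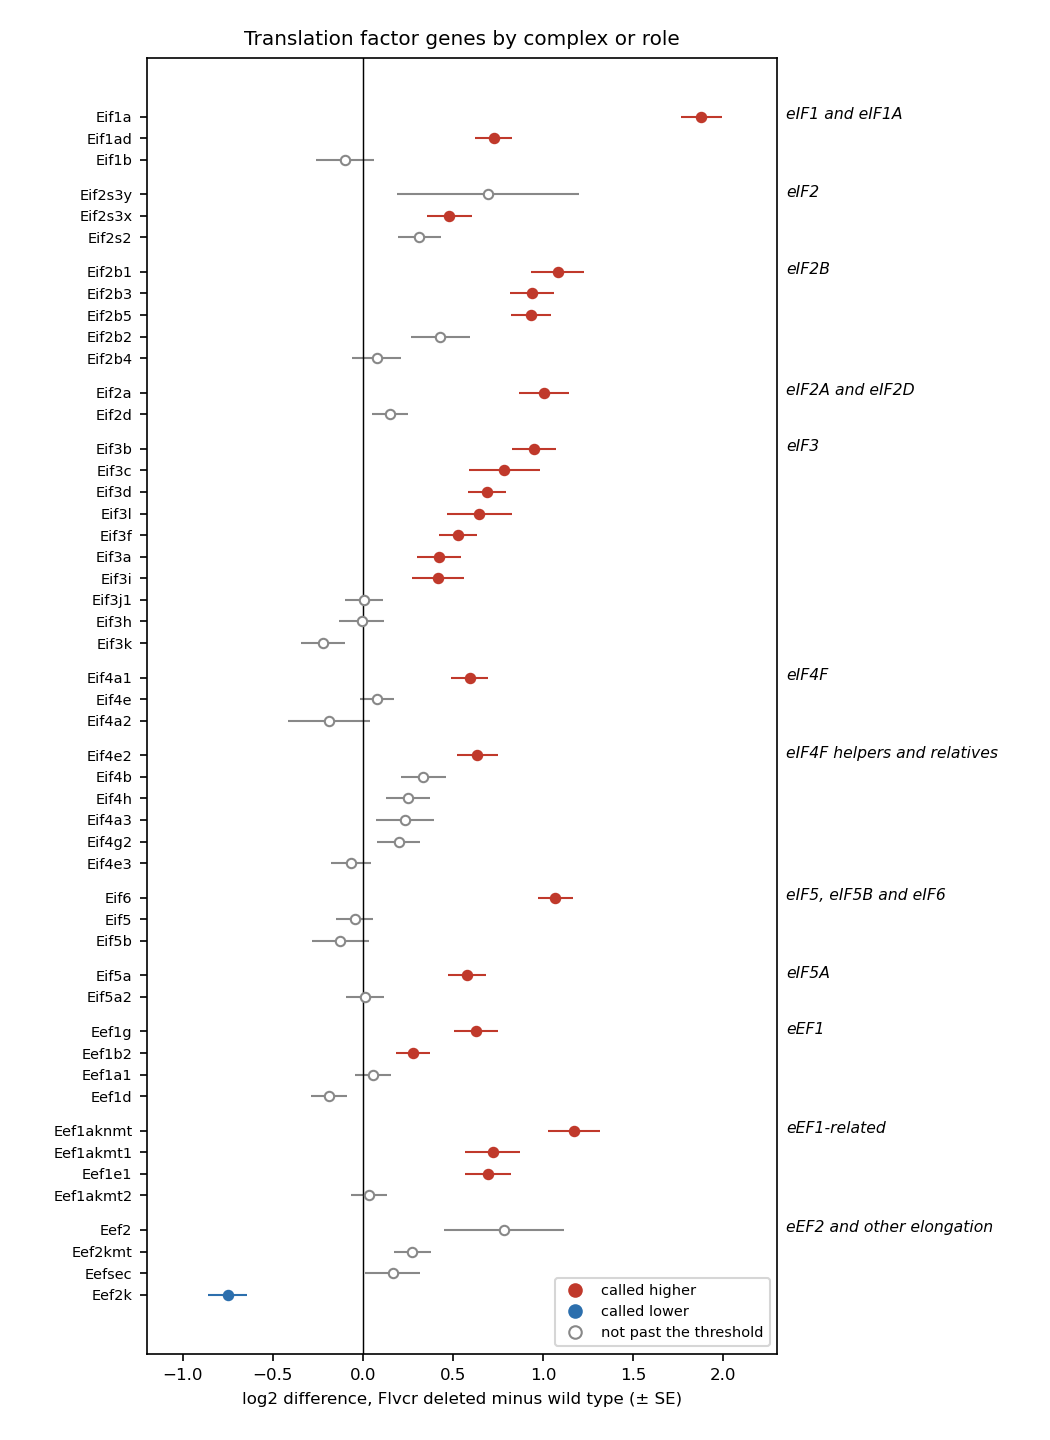
Log2 difference, labelled Flvcr-deleted minus labelled wild-type, with its SE from the limma fit (2 and 3 arrays), for each of the 49 measured factor genes, grouped by complex or role. Red points rose, the blue point fell and open points did not pass. The largest rise is Eif1a at 1.88, and the blue point is Eef2k at -0.75.

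**Figure D2:**
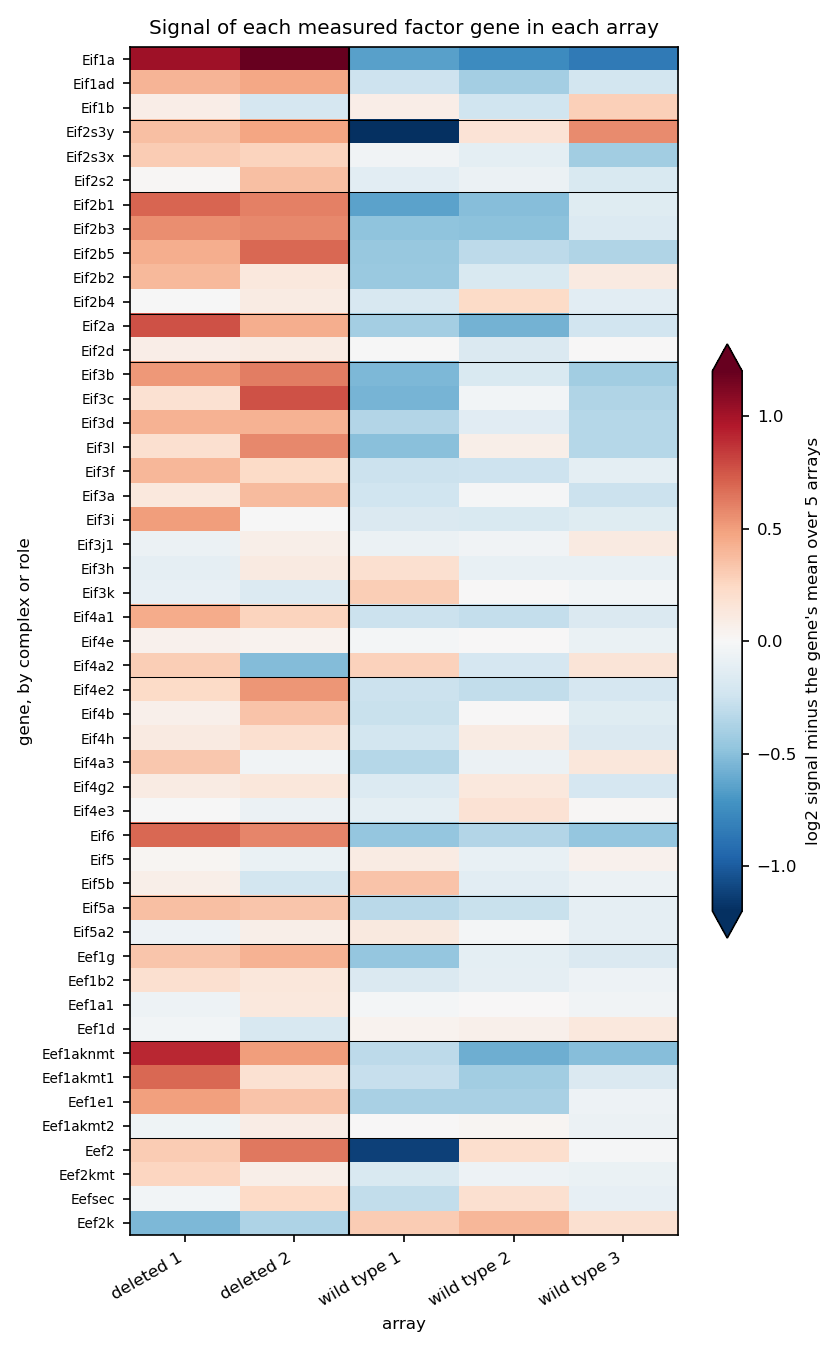
Log2 signal of each measured member in each array, minus that gene's mean over the 5 arrays, with the deleted-labelled arrays on the left of the vertical line. Rows are ordered as complexes or roles. The dark blue cells in wild-type-labelled replicate 1 are Eif2s3y (6.59) and Eef2 (9.998).

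A promoter of the RefSeq table (build GRCm38.p6, 250 bases before to 50 after the annotated start) was found for 39 of the 49 measured members. These were searched on both strands for the E-box CACGTG, the palindrome that MYC with MAX and other factors bind. It stood in 12 of the 39 (30.8%), against 11.7% of 8218 tested genes with a promoter, 16.5% of the 1837 of them that rose, and 8.09% of all 27025 genes of the table. Within the members the share did not follow the call, at 5 of 17 that rose (29.4%) and 7 of 22 others (31.8%). A gene with several listed starts had more chances of a match, as Eif5a with 6, Eef2k with 3 and Eif4e with 2. A match is a description of the letters and not a site of binding. The short windows below show the E-box in capitals, for the 5 members that rose, for Eef2k, which fell, and for Eif4e and Eef2, which did not pass. Each is on the strand of its gene, with the E-box's initial base counted from the annotated start.
Eif3a, chr19:60790654-60790683, minus strand, E-box at base 23 of the transcript: ccgcgagggaatCACGTGgttccttccttt
Eif3f, chr7:108934335-108934364, plus strand, E-box at base -68: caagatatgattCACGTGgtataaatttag
Eif4a1, chr11:69672595-69672624, minus strand, E-box at base -189: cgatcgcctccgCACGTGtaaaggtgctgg
Eif5a, chr11:69921443-69921472, minus strand, E-box at base -74 of one start: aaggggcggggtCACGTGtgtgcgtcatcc
Eef1aknmt, chr1:162548475-162548504, minus strand, E-box at base -147: gtgtggctgctgCACGTGgggcgcggaccg
Eef2k, chr7:120842788-120842817, plus strand, E-box at base -31 of one start: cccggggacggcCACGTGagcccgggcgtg
Eif4e, chr3:138527192-138527221, plus strand, E-box at base -64 of one start: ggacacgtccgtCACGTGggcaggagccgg
Eef2, chr10:81176576-81176605, plus strand, E-box at base -43: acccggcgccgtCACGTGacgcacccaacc

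The element TGATGNAAN, which ATF4 with C/EBP proteins binds, was found on either strand in the promoters of 2 of 39 members (5.13%), Eif2s3x and Eef2k, against 2.94% of the tested genes with a promoter. Many translation genes have a 5′ terminal oligopyrimidine (TOP), a C at the start of the mRNA followed by pyrimidines, through which mTORC1 and LARP1 set their translation. A C at the annotated start with at least 4 pyrimidines after it was found in Eif3f and Eif2s3x alone (5.13% of 39, against 2.91% of 8218 tested genes). Their initial 20 bases are shown with the pyrimidine run in capitals.
Eif3f, start of the transcript: CTCTCTTTCTCggcaagatg
Eif2s3x, start of the transcript: CTTTTCTCTCCgagcaagat
The search read only the annotated starts. It found no such start in Eef1a1, Eef1b2, Eef2 and Eif4b, which are TOP mRNAs by the list that follows, so it cannot show that a member lacks a TOP. Of 9 members listed as TOP mRNAs from general knowledge, 8 were measured. Eef1b2, Eef1g and Eif3f rose, 3 of 8, beside 21.8% of all genes tested, none fell, and the list's median difference was 0.31. The call of Eef1b2, made on its brightest probe, was lost whichever array was left out, and a dimmer probe rose by 0.47 with all arrays.

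Among the factors that start scanning, Eif1a had the largest rise of all members. It encodes eIF1A, which binds the ribosome's A site and helps choose the start codon. Its signal was 10.09 and 10.31 in the deleted-labelled arrays, against 8.42, 8.32 and 8.22 in the wild-type-labelled arrays. The groups lay far apart, with means of 10.20 ± 0.16 (SD, n = 2) and 8.32 ± 0.10 (SD, n = 3), a 3.68-fold difference (log2 1.88, SE 0.11, limma, adjusted p = 1.04e-05). Eif1ax, the X-linked gene for the same factor, was not above the floor on more than 1 array and was not tested. Eif1ad, whose product carries an eIF1A-like domain, read 10.78 and 10.83, against 10.13, 9.96 and 10.15 (log2 difference 0.73, SE 0.10, adjusted p = 5.79e-04). Of its other probes, one also rose (0.66, adjusted p = 0.0193 among all kept probes) and one, at -0.19, did not pass and had the opposite sign. Eif1b, a close relative of eIF1, overlapped between the groups (-0.10, SE 0.16, adjusted p = 0.691). A gene symbol for eIF1 itself was not among the members, and it was not analysed here.

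For eIF2, which carries the initiator tRNA, 3 subunit genes were measured, 1 rose and none fell, with a median difference of 0.48 that was 0.31 without wild-type-labelled replicate 1. Eif2s3x, the X-linked gene of the gamma subunit, read 10.46 and 10.43, against 10.11, 10.04 and 9.74, with no overlap. The difference was 0.48 (SE 0.13, limma, adjusted p = 0.0145), and it was called neither without Flvcr-deleted replicate 1 (0.46, adjusted p = 0.0674) nor without replicate 2 (0.49, adjusted p = 0.0509). Without wild-type-labelled replicate 1, the array with the Xist signal, it was 0.55 (adjusted p = 0.0211). Eif2s2, the beta subunit, read 9.98 and 10.32, against 9.83, 9.89 and 9.78, and did not pass (0.31, SE 0.12, adjusted p = 0.0716), though it did without Flvcr-deleted replicate 1 (0.49, adjusted p = 0.0264). Eif2s3y, the Y-linked gene of the gamma subunit, read 8.52 and 8.62, against 6.59, 8.32 and 8.73. Its difference of 0.69 (SE 0.51, adjusted p = 0.336) came from wild-type-labelled replicate 1, and without that array it was 0.05 (adjusted p = 0.857). The pseudogene Eif2s3x-ps1 was above the floor on no array. The alpha subunit gene Eif2s1 was not among the annotated members and was not analysed here.

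The guanine exchange factor of eIF2, eIF2B, had the highest median of the complexes and roles compared, 0.93, with 3 of 5 subunit genes higher and none lower. Eif2b5 and Eif2b3 encode the catalytic epsilon and gamma subunits. Eif2b5 read 10.87 and 11.13 in the deleted-labelled arrays, against 9.99, 10.13 and 10.08 (log2 difference 0.93, SE 0.11, or 1.91-fold, limma, adjusted p = 2.24e-04), and its other probes gave 0.99 each. Eif2b3 read 10.12 and 10.14, against 9.09, 9.08 and 9.41 (0.94, SE 0.12, adjusted p = 3.64e-04). Both deleted-labelled arrays were thus higher than every wild-type-labelled array for both catalytic subunits. Of the regulatory subunits, which sense phosphorylated eIF2, alpha rose. Its gene Eif2b1 read 10.56 and 10.46, against 9.22, 9.35 and 9.72 (1.08, SE 0.15, or 2.12-fold, adjusted p = 4.64e-04). Eif2b2, the beta subunit, read 10.18 and 9.92, against 9.35, 9.62 and 9.91, apart by little (0.43, SE 0.16, adjusted p = 0.0677). Without wild-type-labelled replicate 3 it was called (0.57, adjusted p = 0.0144). Eif2b4, the delta subunit, overlapped, at 10.50 and 10.60 against 10.31, 10.74 and 10.38 (0.08, SE 0.14, adjusted p = 0.732). The rises of Eif2b1, Eif2b3 and Eif2b5 were called whichever array was left out.

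**Figure D3:**
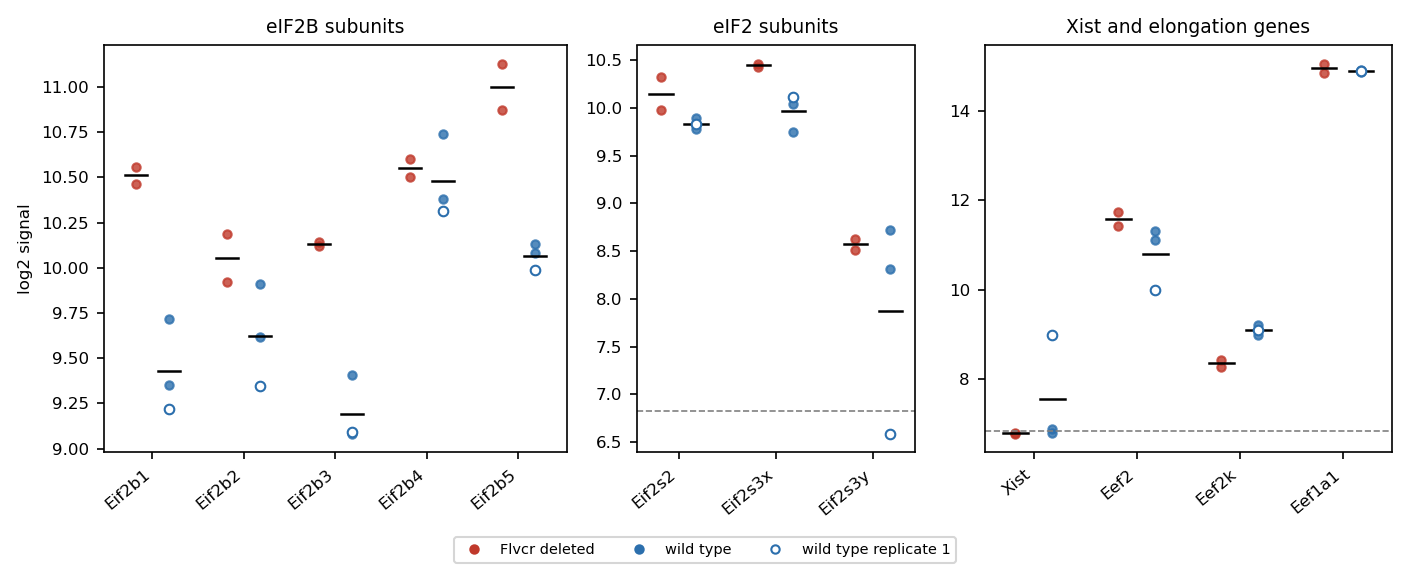
Log2 signal in each array of the eIF2B and eIF2 subunit genes, and of Xist, Eef2, Eef2k and Eef1a1, with deleted-labelled arrays in red to the left of wild-type-labelled arrays in blue. Lines are group means, the dashed line is the background floor (6.83), and the open circle is wild-type-labelled replicate 1, which is high for Xist (8.98) and low for Eif2s3y (6.59) and Eef2 (9.998).

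Of the factors beside eIF2 that can bring initiator tRNA to the ribosome, Eif2a rose. It encodes eIF2A, a single protein unrelated to the alpha subunit of eIF2 and studied for starts at codons other than AUG. It read 11.93 and 11.61, against 10.76, 10.60 and 10.94 (1.01, SE 0.14, or 2.01-fold, limma, adjusted p = 4.82e-04). Eif2d, which can deliver tRNA independently of GTP, did not pass (0.15, SE 0.10, adjusted p = 0.297).

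eIF3 is the largest initiation factor, a scaffold that links the small subunit to eIF4F. Among 10 measured subunit genes 7 rose and 3 showed no call, and the median difference was 0.47. Eif3b, of the module with Eif3i that is also found in budding yeast, read 10.73 and 10.83, against 9.68, 10.03 and 9.79 (0.95, SE 0.12, limma, adjusted p = 3.41e-04), although its dim second probe gave 0.15 and did not pass. Eif3d, which can bind the cap of certain mRNAs, read 13.09 in both deleted-labelled arrays, against 12.32, 12.54 and 12.33 (0.69, SE 0.11, adjusted p = 9.29e-04). Both lay clear of every wild-type-labelled array. Eif3c, a core subunit, read 9.29 and 9.88, against 8.56, 9.08 and 8.76 (0.79, SE 0.20, adjusted p = 0.0115). Eif3l read 12.28 and 12.67, against 11.59, 12.15 and 11.75 (0.65, SE 0.18, adjusted p = 0.0187), with a second probe at 0.64. By their brightest probes, the rises of Eif3c and Eif3l, and those of Eif3a (0.42, adjusted p = 0.0229) and Eif3i (0.41, adjusted p = 0.0494), depended on single arrays. Eif3f (0.53, adjusted p = 0.0036) was called in each fit. With all arrays, the dimmer kept probes of Eif3i rose by 0.42 and 0.50 (adjusted p = 0.00778 and 0.0036 among all kept probes). A dimmer Eif3c probe rose by 0.51 (adjusted p = 0.00713 among all kept probes).

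Without Flvcr-deleted replicate 2, Eif3a was 0.30 (adjusted p = 0.198), Eif3c 0.49 (adjusted p = 0.0807) and Eif3l 0.45 (adjusted p = 0.125). Without wild-type-labelled replicate 1 they were 0.39, 0.67 and 0.53, with adjusted p between 0.0591 and 0.0831. Eif3a also lost its call without wild-type-labelled replicate 3 (0.38, adjusted p = 0.0589). Eif3i passed only when Flvcr-deleted replicate 2 was left out (0.67, adjusted p = 0.0045), and without replicate 1 it was 0.16 (adjusted p = 0.475). The eIF3 genes that rose thus numbered 4 when Flvcr-deleted replicate 2 was left out and 3 when wild-type-labelled replicate 1 was. The subunits that did not pass were Eif3k (-0.22, SE 0.12, adjusted p = 0.195), a peripheral subunit whose deleted-labelled arrays both lay below the others, and the dim Eif3h (-0.01) and Eif3j1 (0.00), whose signals were between 6.76 and 7.10. The probes of Eif3e and Eif3m were not above the floor on 2 arrays and were not tested.

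eIF4F joins the cap-binding protein eIF4E, the scaffold eIF4G and the helicase eIF4A. Here 3 of its genes were measured, 1 rose and none fell. The median of 0.08 is that of the near-floor Eif4e probe, and it was 0.20 with the floor on all 5 arrays, which leaves Eif4e out, and 0.22 without Flvcr-deleted replicate 2. Eif4a1, the main helicase gene of growing cells, read 13.46 and 13.28, against 12.75, 12.73 and 12.84 (0.59, SE 0.10, or 1.51-fold, limma, adjusted p = 0.00173), and its other probe gave 0.88. Its paralog Eif4a2 read 10.66 and 9.84, against 10.64, 10.17 and 10.52, and overlapped (-0.19, SE 0.23, adjusted p = 0.583). Its deleted-labelled replicates differed from each other by more than the groups did. Without Flvcr-deleted replicate 1 it was -0.60 (adjusted p = 0.0345), and without replicate 2 it was 0.22 (adjusted p = 0.461). The difference of Eif4a1 exceeded that of Eif4a2 by 0.78 on the log2 scale, in an exact permutation test over arrays with a two-sided p of 0.1, the smallest that 2 against 3 arrays allow (adjusted p = 0.1 over 3 paralog pairs).

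The Eif4e probe was close to the floor, at 6.94 and 6.93 against 6.86, 6.89 and 6.81 (0.08, SE 0.09, limma, adjusted p = 0.574), where these arrays cannot show a level. Eif4e2, which encodes the cap-binding protein 4EHP that competes with eIF4E and represses mRNAs, read 10.77 and 11.06, against 10.27, 10.24 and 10.33. It rose (0.64, SE 0.11, adjusted p = 0.00208), while its dimmer probes, at 0.34 and 0.17, did not pass. With Eif4e near the floor, a contrast between this pair would only restate Eif4e2. Of the other relatives, 5 did not pass by their brightest probes. Eif4b (0.34, adjusted p = 0.0611) and Eif4h (0.25, adjusted p = 0.143) help the helicase, Eif4g2 (0.20, adjusted p = 0.249) is a scaffold without an eIF4E site, Eif4a3 (0.23, adjusted p = 0.312) belongs to the exon junction complex, and Eif4e3 (-0.07, adjusted p = 0.713) is a further cap-binding relative. Among all kept probes, a dimmer Eif4b probe (0.30, adjusted p = 0.0301) and the dimmest Eif4g2 probe (0.29, adjusted p = 0.0419) rose. The remaining Eif4g2 probe (0.33, adjusted p = 0.169) did not pass. The Eif4g3 probe was above the floor on no array, and Eif4g1 was not among the annotated members and was not analysed here.

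At subunit joining the members split. Eif6, which keeps the large ribosomal subunit from joining too early and is also needed to make that subunit, read 11.98 and 11.88, against 10.82, 10.93 and 10.83. The groups were clearly apart, 2.10-fold (1.07, SE 0.10, limma, adjusted p = 5.81e-05), though a dim second probe gave 0.20 and did not pass. Eif5, the GTPase activator of eIF2, overlapped by its brightest probe (-0.05, SE 0.10, adjusted p = 0.781). A further Eif5 probe, designed to another transcript record, fell by 0.61 (adjusted p = 0.00221 among all kept probes), and the mean of the 3 probes also fell (-0.27, adjusted p = 0.0275). Eif5b, the GTPase of subunit joining, did not pass at signals between 6.85 and 7.42 (-0.13, SE 0.16, adjusted p = 0.606).

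Eif5a encodes eIF5A, the only protein known to carry hypusine, which helps ribosomes through stalling sequences and at termination. It read 12.23 and 12.20, against 11.55, 11.60 and 11.76 (0.58, SE 0.10, limma, adjusted p = 0.00212). A second probe gave 0.34 and also rose, and the remaining one gave 0.20 and did not pass. The signals of Eif5a2, its paralog, lay around the floor, between 6.66 and 6.88, and cannot show whether it changed (0.01, SE 0.11, adjusted p = 0.959).

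In eEF1, 2 of 4 measured genes rose and none fell, with a median of 0.17. Eef1a1, which delivers aminoacyl-tRNAs, was among the brightest probes of the arrays, at 14.87 and 15.06 against 14.91, 14.93 and 14.89, and overlapped (0.06, SE 0.10, limma, adjusted p = 0.733). The value of 15.06 is the highest signal of any array, the top of the scale. A second, slightly dimmer Eef1a1 probe read 14.82 and 14.92, against 14.63, 14.71 and 14.65, with no overlap, and did not pass (0.20, adjusted p = 0.131 among all kept probes). Eef1g, the gamma subunit of the exchange factor, read 14.38 and 14.47, against 13.59, 13.93 and 13.88 (0.63, SE 0.12, adjusted p = 0.0035). Eef1b2, its nucleotide-exchange subunit, read 12.36 and 12.30, against 11.99, 12.06 and 12.10. Its groups did not overlap, but its small rise (0.28, SE 0.10, adjusted p = 0.0457) was called in none of the 5 fits without an array (0.25 to 0.31, adjusted p between 0.0523 and 0.239). A dimmer Eef1b2 probe rose by 0.47 (adjusted p = 0.00499 among all kept probes), and the remaining one gave 0.37 and did not pass (adjusted p = 0.0519). Neither of these probes overlapped between the groups. Eef1d, the other exchange subunit, had both deleted-labelled arrays below the rest and did not pass (-0.19, SE 0.10, adjusted p = 0.179). A dimmer Eef1d probe gave 0.29. The 3 probes of Eef1a2, the form of muscle and neurons, were not above the floor on 2 arrays.

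Of the 4 measured genes whose products modify or associate with eEF1, 3 rose and none fell, with a median of 0.71. Eef1aknmt, also known as Mettl13, encodes a methyltransferase of eEF1A. It read 9.22 and 8.81, against 7.998, 7.73 and 7.79 (1.17, SE 0.14, or 2.25-fold, limma, adjusted p = 2.43e-04), and its 2 dimmer kept probes rose by 0.59 and 0.36. Eef1akmt1, another lysine methyltransferase of eEF1A, read 9.37 and 8.87, against 8.41, 8.27 and 8.51 (0.72, SE 0.15, adjusted p = 0.00506). Eef1e1, a scaffold of the multi-synthetase complex, read 9.68 and 9.54, against 8.81, 8.80 and 9.13 (0.69, SE 0.13, adjusted p = 0.00243). In each of these the groups were separate. Eef1akmt2 was at the floor (0.03, adjusted p = 0.836).

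Eef2k, whose kinase phosphorylates eEF2 and so slows elongation, was the one member that fell. It read 8.26 and 8.43 in the deleted-labelled arrays, against 9.10, 9.20 and 8.99 in the wild-type-labelled arrays. On average it was 8.34 ± 0.12 (SD, n = 2) against 9.10 ± 0.10 (SD, n = 3), a 1.68-fold fall (-0.75, SE 0.11, limma, adjusted p = 6.44e-04), called in every fit without an array. Its substrate Eef2 read 11.43 and 11.75, against 9.998, 11.33 and 11.10, with wild-type-labelled replicate 1 low. The difference of 0.78 (SE 0.33, adjusted p = 0.0983) did not pass, and without that array it was 0.38 (adjusted p = 0.106). All 3 Eef2 probes were low there, at 9.998, 9.46 and 9.34, against 10.23 to 11.33 in the other wild-type-labelled arrays. With all arrays and among all kept probes, the dimmest of them rose (0.79, adjusted p = 0.0335) and the second did not pass (0.82, adjusted p = 0.0644). Without wild-type-labelled replicate 2, Eef2 was called (1.04, adjusted p = 0.0355). Eef2kmt, a methyltransferase of eEF2 (0.27, adjusted p = 0.068, with a dimmer probe that rose by 0.44), and Eefsec, which delivers selenocysteyl-tRNA (0.17, adjusted p = 0.462), did not pass.

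**Figure D4:**
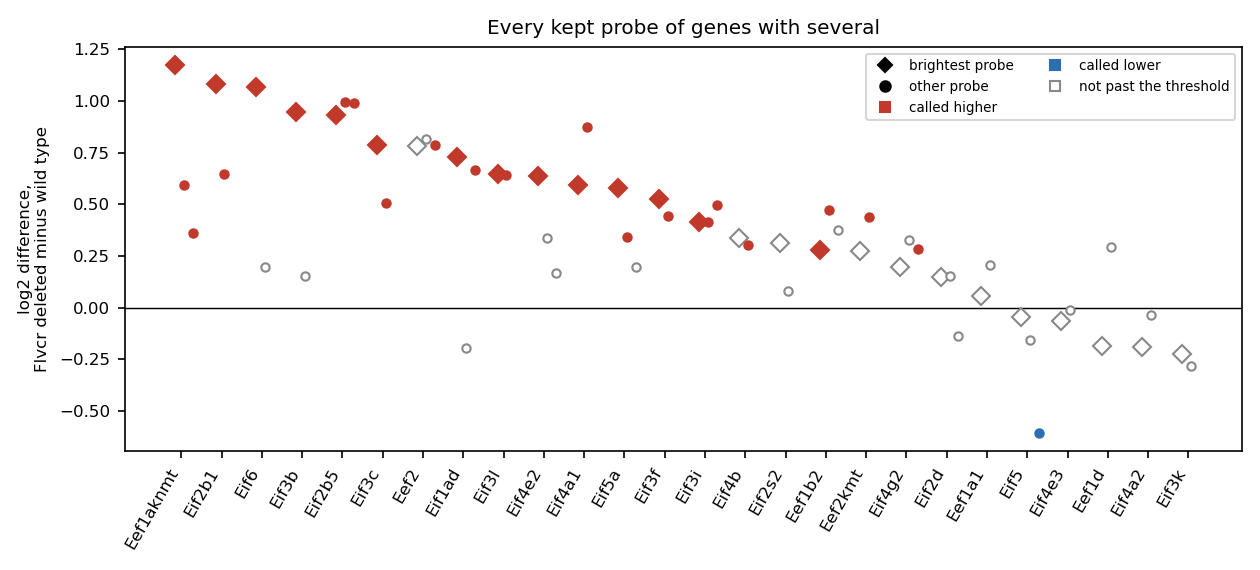
Log2 difference of every kept probe of the 26 members with several, ordered by their brightest probe (diamonds), with p-values adjusted over all kept probes. Red probes rose, the blue probe fell and open ones did not pass. The blue point is the third Eif5 probe (-0.61), and Eif1ad, Eef1d and Eif2d have probes on both sides of 0.

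Several probes for a gene gave a further look at the same arrays. Of 86 kept member probes, 41 rose and 2 fell, when 19.5% of all 15208 kept probes with a symbol rose and 16.8% fell (36.2% in all). In 23 of 26 members with several kept probes all had the same sign. Of the 14 of these members that rose, every kept probe rose in 8, including Eif2b1, Eif2b5, Eif3f and Eif4a1.

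The regulators of these factors, which are not members, moved in both directions. Of 5 measured eIF2 kinases and phosphatase subunits 4 fell and none rose. The heme-regulated kinase gene Eif2ak1 read 10.73 and 10.80, against 12.11, 12.04 and 11.85 (-1.24, SE 0.11, limma, adjusted p = 4.91e-05). Ppp1r15a, the stress-induced phosphatase subunit that reverses eIF2 phosphorylation, differed by -1.83 (SE 0.11, adjusted p = 1.04e-05), and Eif2ak2, the kinase PKR, by -0.85 (SE 0.10, adjusted p = 1.94e-04). Of 8 cap regulators 2 rose, 2 fell and 4 did not pass. Eif4ebp1, which keeps eIF4E from eIF4G, read 11.08 and 11.41, against 10.10, 9.89 and 10.16 (1.19, SE 0.13, adjusted p = 1.55e-04). The TOP mRNA regulator Larp1 rose by 0.81 (adjusted p = 0.0023), and the eIF4E transporter Eif4enif1 fell by 0.65 (adjusted p = 0.0022).

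Factors of the later steps were mostly level or higher. Of 3 termination genes 2 rose, the release factors Gspt1 (1.14, SE 0.12, limma, adjusted p = 1.01e-04) and Etf1 (0.71, SE 0.11, adjusted p = 8.12e-04). Of 7 genes of recycling and unusual initiation 3 rose and 1, Pelo, fell (-0.34). Mcts1 (1.37, SE 0.10) and Denr (0.79, SE 0.10), whose products work as a pair, both rose, as did the helicase gene Dhx29 (0.69, SE 0.13). For the enzymes that make hypusine on eIF5A and diphthamide on eEF2, 2 of 5 rose, Dph2 (1.02) and Dph1 (0.89), both of diphthamide. Of 9 mitochondrial translation factors 5 rose and none fell, led by Tsfm (1.23), Tufm (0.95) and Mtif3 (0.63). Of 5 poly(A)-binding genes only Paip2b, an inhibitor of poly(A)-binding protein, passed (0.81). Over these 7 lists 15 of 42 measured genes rose (35.7%, against 21.8% of all genes tested) and 7 fell (16.7%, against 17.5%).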

How the data were processed

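The authors deposited one log2 signal per probe and array; the labels' protocols describe total RNA labelled as biotinylated cRNA. Log base and normalization were read from the values, since no source used here states them, nor the software. A table of unnormalized signals was left out because its 10 value columns match no label, so the neqc start that was planned gave way to the deposited values.

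The background floor, 6.83, is the position of the signals' peak (6.70) raised by 1.64 lower-side spreads (0.0824). Of 45281 probes, 34885 had 1 gene symbol, 18 several and 10378 none. Probes above the floor on at least 2 arrays were kept, and each gene took its brightest. Genotype alone was fitted (limma 3.58.1, lmFit and eBayes, R 4.3.3, two-sided), as tested on simulated data; called means an adjusted p under 0.05. Groups and replicate numbers come from the sample titles, and the number of arrays limits the precision.

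Members and lists were chosen with earlier results of these data known. Values per array are given for up to 4 called members of largest change in each role and for Eif2b5, Eif4e, Eif4a1, Eif4a2, Eif5a, Eif6, Eef1a1, Eef2 and Eef2k; Eif2s2, Eif2s3y, Eif2b2 and Eif2b4 were added after their values were seen, to complete eIF2 and eIF2B. Up to 3 called genes of largest change are named per list of other translation genes. Alternatives were the filter, probe choice, normexp, cyclic loess, a replicate block and each array left out.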

Additional observations from a re-analysis of the deposited data

How the results depend on the processing

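For 25 named members, 253 of 274 values kept direction and side of the threshold, 15 lost the call, 4 gained it and 2 changed sign, both without Flvcr-deleted replicate 2 and neither called. Leaving out each array, Eef1a1 ranged from -0.042 to 0.152 and Eif4a2 from -0.60 to 0.22. Eif4e was not tested with the floor on all 5 arrays. Under the alternatives that kept all arrays and tested genes, between 11.3% (no filter) and 28.5% (floor on all 5 arrays) of all genes tested rose. The count of members higher was 21 to 26 under the alternatives that kept all arrays and tested genes. When every kept probe was tested by itself, 41 of 86 member probes were higher and 2 lower. Of all 15208 kept probes with a symbol, 19.5% were higher and 16.8% lower. By probe, 6 were higher in eIF2B, 12 in eIF3 and 2 in eIF4F, and the eEF1 median was 0.29. Among other translation genes 12 probes were lower. These count probes, several for some genes, and cannot be set beside counts of genes. When probes of a gene were averaged, 2 members were lower (Eef2k and Eif5), the eEF1 median was 0.25, Eif4e minus Eif4e2 was -0.30 (-0.56 by the brightest probes) and Eif5a minus Eif5a2 0.36 (0.57), contrasts in which Eif4e and Eif5a2 lie near the floor. With no filter the eEF1 median was 0.055. The eEF1 count higher was 1 with the floor on all 5 arrays, normexp, cyclic loess or the replicate block, where Eef1b2 was lost. The cause of these shifts was not tested. No source says that the replicate numbers pair arrays, so the main fit used them as names only. Deviations of same-numbered arrays from their group means correlated at -0.03 and 0.10. With 2 deleted-labelled arrays those deviations mirror each other, so the correlations cannot show whether the numbers pair arrays. With the replicate block 26 members were higher and 2 eIF2 genes in place of 1, and Eef2 passed (0.93, limma, adjusted p = 6.52e-04). Normexp also brought Eef2 past the threshold (adjusted p = 0.0484). Leaving out each array in turn, members lower ranged from 1 to 2, genes higher from 0 to 1 in eIF2, 3 to 6 in eIF3 and 1 in eEF1, genes lower from 0 to 1 in eIF4F, and other translation genes lower from 4 to 7. Eif4a1 minus Eif4a2 ranged from 0.46 to 1.10 and Eif4e minus Eif4e2 from -0.71 to -0.40. Where 1 deleted-labelled array is left, it is assumed to vary like the others. Signals near the floor limit Eif4e, Eif5a2, Eif3h and Eif3j1, and the top of the scale limits Eef1a1.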
